A study of Mus musculus with 52 samples.

Results

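The comparison set gastrocnemius muscle of aged mice that had drunk metformin plus leucine against muscle of mice that had drunk water alone, both after 7 d of reloading. Its members are the 4 libraries titled as 7 d of reloading with metformin plus leucine, called RL7_ML here (replicates 1, 3, 4 and 6), and the 4 libraries titled as the 7 d reloading control, called RL7_W (replicates 1, 2, 3 and 4). These are 8 of the 52 libraries of the series, and all genes were described in them. The mice of both groups were male C57BL/6 animals aged 22 to 24 months that had gone through hindlimb unloading, in which the hind legs bear no weight, and were then returned to normal weight bearing. RL7_ML mice had metformin and leucine in the drinking water, and RL7_W mice had drinking water with neither. The other groups used for reference at 7 d of reloading were RL7_M (metformin alone) and RL7_L (leucine alone), and the same drinks were compared at the end of unloading (HU_ML against HU_W) and after 14 d of reloading (RL14_ML against RL14_W). Each group held 4 libraries. Each library was taken as 1 mouse, and p-values measure only the spread between these libraries.

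Metformin is a drug for diabetes that slows mitochondrial respiration and thereby activates AMP-activated protein kinase (AMPK), a sensor of low cellular energy. Leucine is an essential amino acid that switches on the kinase complex mTORC1, which drives protein synthesis. When a wasted muscle bears weight again, its fibres rebuild contractile protein, satellite cells (the stem cells of muscle) divide and the connective tissue is remodelled, and these steps are slower in old animals.

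Totals ran from 17124804 to 20334981 counts in the RL7_ML libraries and from 17200278 to 20179729 counts in the RL7_W libraries. The 2 groups differed in the make-up of their libraries before any single gene was considered. Mitochondrially encoded genes took 7.56% to 10.4% of the counts in RL7_ML and 13.2% to 15.4% in RL7_W. The GC trend of a library, the log2 level of GC-rich coding genes minus that of GC-poor ones relative to the mean of all libraries, was 0.322 to 0.428 in RL7_ML and -0.125 to 0.207 in RL7_W. Library numbers run with the groups. The 16 libraries numbered 25 to 40 (RL7_M, RL7_L, RL7_ML and RL14_W) had a mitochondrial share of 5.53% to 11.7%, against 11.2% to 29.2% in the other 36, to which RL7_W belongs. Library number and drink therefore cannot be told apart in this comparison. No library of the 8 exceeded 16 CPM (counts scaled to a common library size) of the liver transcript Alb, which 12 of the 52 libraries did, but RL7_ML 4 held 9.85 CPM. Markers of fast muscle fibres dominated all 8 libraries, with a summed level of 111100 to 143800 CPM in RL7_ML and 96250 to 118900 CPM in RL7_W. Of 9 neutrophil markers, Ly6g, Mpo, Elane, Ngp and Camp had 0 counts in all 8 libraries.

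**Figure D1:**
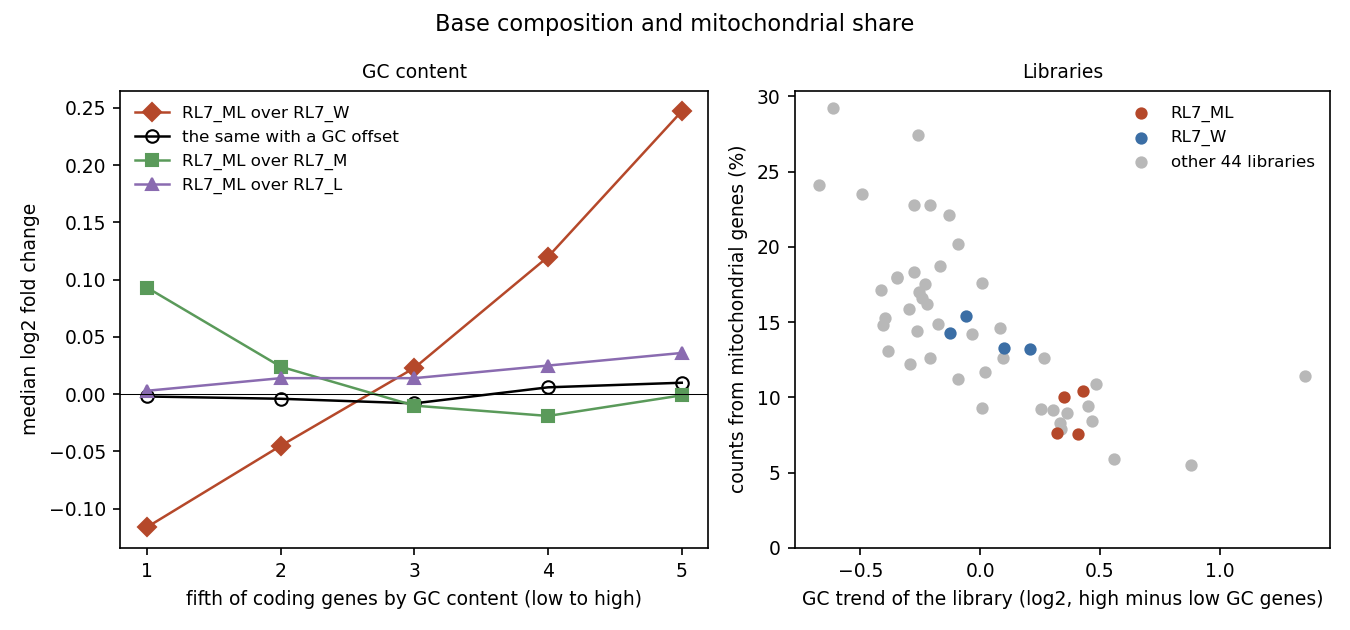
Left, median log2 fold change of protein-coding genes in 5 equal classes by GC content for RL7_ML over RL7_W, for the same with a GC offset, and for RL7_ML over RL7_M and over RL7_L; right, mitochondrial share (percent of counts) of each of the 52 libraries against its GC trend (log2). Medians for RL7_ML over RL7_W climb from -0.12 in the lowest class to 0.25 in the highest, and the 4 RL7_ML libraries lie below and to the right of the 4 RL7_W libraries.

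A single gene of 16668 tested passed the threshold, an adjusted p under 0.05 (edgeR quasi-likelihood test, Benjamini-Hochberg adjustment), which is 0.006% of genes. It was the antisense transcript A930016O22Rik, higher in RL7_ML, and 0 genes were lower. Its clone-type name lies outside the naming rule, and it is described because it is the only call. At an unadjusted p under 0.05 there were 1516 genes (9.1%), 961 higher (5.77%) and 555 lower (3.33%). The libraries of both groups did not overlap in 1070 higher genes (6.42%) and 700 lower genes (4.2%). The median log2 fold change of all genes was 0.014, and the median standard error (SE) of a fold change was 0.227. Other fits gave other counts. A fit of the 8 libraries alone called 433 of 14575 genes (2.97%), 261 of them higher (1.79%) and 172 lower (1.18%). The fit of the 16 libraries of 7 d reloading called 24 (0.154%), and limma voom with quality weights called 638 (3.83%). DESeq2 called 20 (0.0963%), of which 11 were liver transcripts (Apoa1, Fga, Fgb, Fgg, Mug1, Pzp, Cps1, Mat1a, Plg, Gc and Ambp).

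The fold changes followed base composition. Over 13375 protein-coding genes, the log2 fold change and the GC share of the transcript had a Pearson correlation of 0.304, a description across genes that share the same 8 libraries. With these genes in 5 equal classes by GC share, the median log2 fold change was -0.12 in the lowest class and 0.25 in the highest. With RL7_M in place of water the same medians were 0.09 and -0.001, and with RL7_L they were 0.003 and 0.04. The libraries of both lie, like those of RL7_ML, among the numbers 25 to 40. A fit with a GC offset for each library, added after the data were seen, brought the correlation to 0.004. With that offset 692 genes were higher and 702 lower at an unadjusted p under 0.05, and the call of A930016O22Rik was the only one. A second fit added after the data were seen took the mitochondrial share of each library as a covariate. It called 0 genes, with 972 at an unadjusted p under 0.05, and moved 47 of 101 named genes by more than the spread between replicates, against 12 of 101 with the GC offset. The part of library composition in the values below was not tested beyond these fits, and for the lists described below the median in either fit is given where it lay more than 0.1 from the first value or had the other sign.

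**Figure D2:**
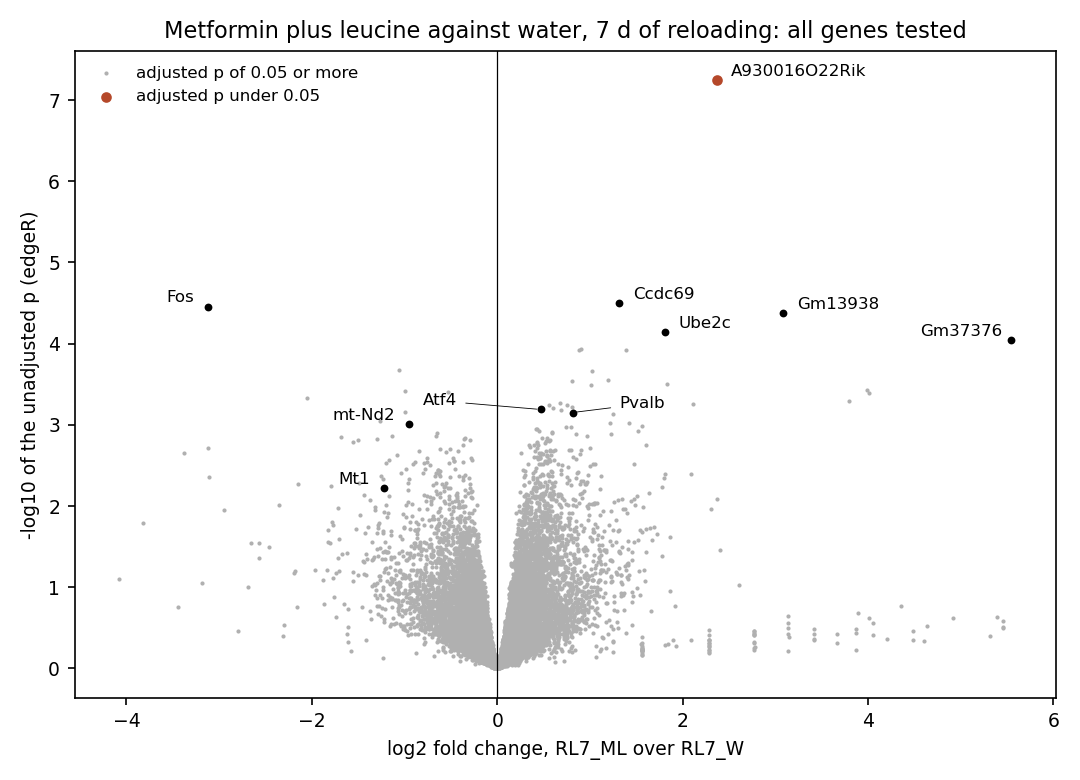
Each point is 1 of the 16668 genes tested, with the log2 fold change of RL7_ML over RL7_W on the x axis and the negative log10 of its unadjusted p from edgeR on the y axis. A930016O22Rik is the only gene past an adjusted p of 0.05, and Fos and Ccdc69 come next.

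A930016O22Rik (ENSMUSG00000040705) is a long noncoding RNA annotated on the minus strand of chromosome 7 at 19417466-19421417 (GRCm38), where it overlaps Ckm, the gene of muscle creatine kinase, on the opposite strand. It had 8.88, 5.94, 2.61 and 3.66 CPM in the RL7_ML libraries, against 1.27, 1.123, 1.06 and 0.611 CPM in the RL7_W libraries. All 4 RL7_ML libraries lay above all 4 RL7_W libraries. The log2 fold change was 2.37 ± 0.37 (SE; adjusted p of 0.0009468 in edgeR's quasi-likelihood test). Over 23 alternative settings it lay between 1.72 and 2.57 with adjusted p between 8.877e-07 and 0.07086, and it was called in 22. With the mitochondrial share of each library as a covariate it was 1.72 and not called. Ckm itself had 13470, 8940, 10320 and 9804 CPM in RL7_ML, against 6866, 8458, 7675 and 6745 CPM in RL7_W, a log2 fold change of 0.52 ± 0.18 (SE) that did not pass the test (adjusted p of 0.4078, edgeR).

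The transcript also stood above water with each agent alone. Its median was 4.80 CPM in RL7_ML, against 11.7 CPM in RL7_M, 14.6 CPM in RL7_L and 1.09 CPM in RL7_W. The log2 differences from the shared RL7_W libraries were 3.64 ± 0.37 for RL7_M and 3.83 ± 0.37 (SE) for RL7_L. Neither RL7_ML against RL7_M (-1.27, adjusted p of 0.5259) nor RL7_ML against RL7_L (-1.46, adjusted p of 0.141) passed the test in edgeR. Elsewhere A930016O22Rik had a median of 1.22 CPM in HU_ML, against 1.56 CPM in HU_W, and of 3.80 CPM in RL14_ML, against 1.91 CPM in RL14_W.

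Reads of a weak gene and of an abundant gene that faces it can be told apart only where the counting used strand. The library kit was stranded, per the labels, and the strand setting of the counting was not given in the sources used here. Chosen after the values were seen, 19 tested genes lie opposite a gene with a mean of at least 1000 CPM and hold at most 1% of its level. Of these 19 genes, 17 had a positive log2 fold change. At an unadjusted p under 0.05, 12 were higher and 0 lower, beside 5.77% and 3.33% of all genes. In 5 the groups did not overlap, all 5 higher, beside 6.42% of all genes. The median log2 fold change of the 19 was 1.39, against 0.07 for the 17 abundant partners and 0.014 for all genes. The filter on counts saw all 52 libraries. With the 8 libraries alone 11 of the 19 were tested, so some entered through other groups. Nothing is therefore read from these counts or this median. Without A930016O22Rik, the other 18 summed to 99.8 to 126 CPM in RL7_ML, against 72.3 to 74.7 CPM in RL7_W, and to 111 to 192 CPM in RL7_M and 161 to 186 CPM in RL7_L. Gm13938, opposite the giant sarcomere gene Ttn, had 3.28, 2.86, 0.837 and 0.927 CPM in RL7_ML, against 0.457, 0.204, 0.106 and 0.141 CPM in RL7_W (log2 fold change of 3.09 ± 0.68 SE; adjusted p of 0.175, edgeR). DESeq2 called 5 of the 19, beside 0.0963% of all genes, and limma voom 3 of 19, beside 3.83%. The fit of the 8 libraries called 3 of the 11 it tested, beside 2.97% of all genes. With the GC offset it called 1 of 11, beside 0.254%. The fit of the 16 libraries of 7 d called 1 of 18, beside 0.154%. In both, that 1 gene was A930016O22Rik itself, which is also among the calls of DESeq2, limma voom and the 8-library fit. The set holds the called gene and was chosen with the values in view, so nothing is read from these calls either. The part of reads from the facing strand in the call of A930016O22Rik was not tested, and the transcript is reported as uncertain.

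Ube2c, which encodes a ubiquitin-conjugating enzyme of mitosis, faces Tnnc2, the gene of fast troponin C, and is uncertain for the same reason. It had 8.56, 8.71, 1.77 and 2.68 CPM in RL7_ML, against 1.83, 1.53, 1.38 and 1.46 CPM in RL7_W. RL7_ML 4 lay within the range of the water libraries and RL7_ML 1 and 3 well above it (log2 fold change of 1.81 ± 0.41 SE; adjusted p of 0.222, edgeR). Per 10000 counts of its partner, A930016O22Rik had 6.59, 6.64, 2.53 and 3.73 counts in RL7_ML 1, 3, 4 and 6, and Ube2c had 24.3, 38.9, 8.35 and 14.0. In RL7_W the ranges were 0.906 to 1.85 for A930016O22Rik and 4.59 to 8.07 for Ube2c. The same RL7_ML libraries were thus high in both. The list of 10 tested proliferation genes had a median log2 fold change of 0.00 with 5 positive members, and one of -0.50 with the mitochondrial share as a covariate.

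**Figure D3:**
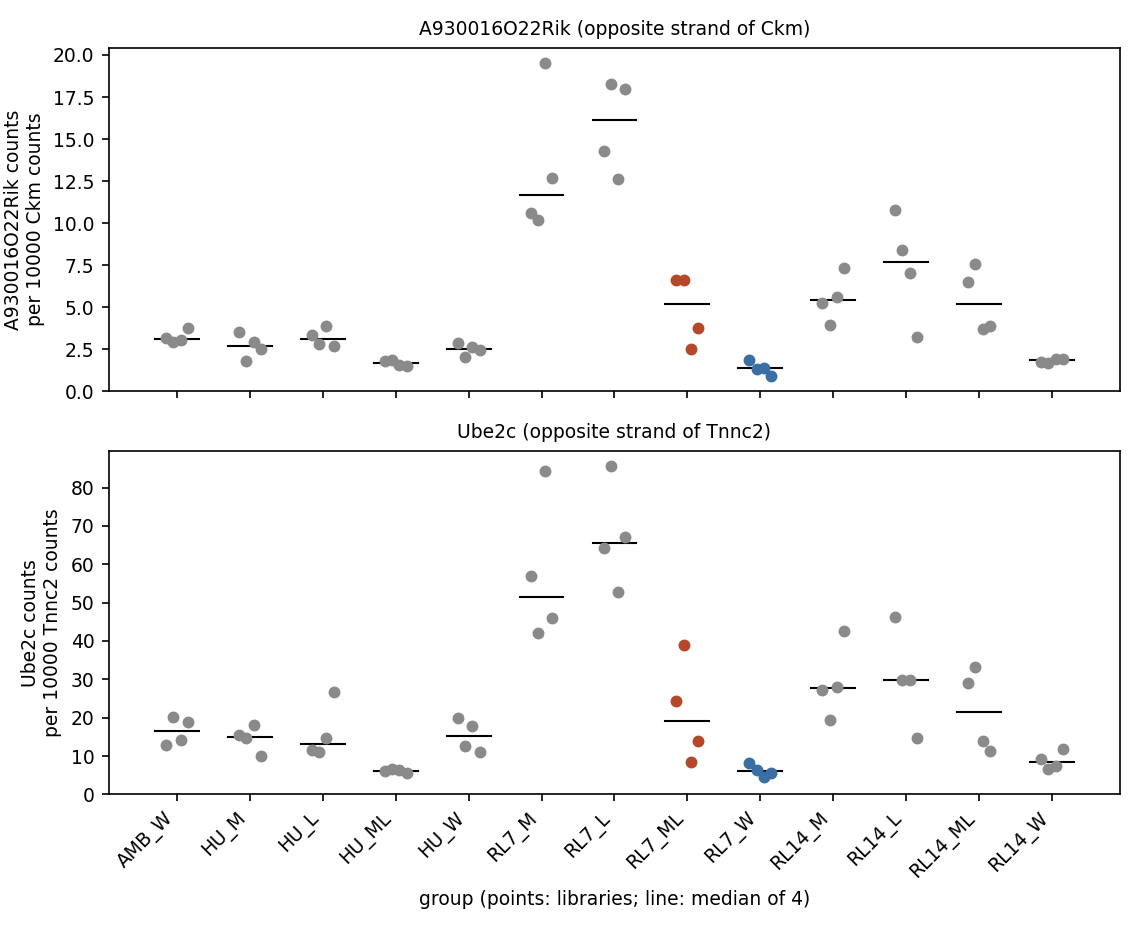
Counts of A930016O22Rik per 10000 counts of Ckm (top) and of Ube2c per 10000 counts of Tnnc2 (bottom) in all 52 libraries by group, with a line at the median of 4. RL7_ML medians of 5.16 and 19.2 lie above the RL7_W medians of 1.36 and 5.99 and below those of RL7_M and RL7_L, and both genes have the same 3 groups of 7 d reloading above water.

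Promoters are printed for the called gene, for the gene with the smallest p among the lower ones (Fos) and for a glycolysis gene whose list stood higher as a whole (Pgk1). Each runs from 250 bases before to 50 bases after the RefSeq start on GRCm38.p6, 5′ to 3′ on the strand of the gene. Capitals mark CCAAT or its complement ATTGG in A930016O22Rik, TGACG in Fos and ACGTG or its complement CACGT in Pgk1. The regions are chr7:19421368-19421667 on the minus strand, chr12:85473640-85473939 on the plus strand and chrX:106186850-106187149 on the plus strand.
A930016O22Rik: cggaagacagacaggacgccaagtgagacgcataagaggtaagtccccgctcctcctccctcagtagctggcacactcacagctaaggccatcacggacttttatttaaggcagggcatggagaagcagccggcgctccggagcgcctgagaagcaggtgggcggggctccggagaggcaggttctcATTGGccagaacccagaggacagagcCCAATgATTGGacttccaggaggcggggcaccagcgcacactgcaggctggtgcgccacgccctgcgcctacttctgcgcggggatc
Fos: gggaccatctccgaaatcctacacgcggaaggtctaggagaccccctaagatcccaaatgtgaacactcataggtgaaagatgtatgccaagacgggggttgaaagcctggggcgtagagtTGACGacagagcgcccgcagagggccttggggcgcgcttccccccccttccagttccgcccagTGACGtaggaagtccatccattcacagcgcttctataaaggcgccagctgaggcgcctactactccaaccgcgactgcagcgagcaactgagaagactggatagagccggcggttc
Pgk1: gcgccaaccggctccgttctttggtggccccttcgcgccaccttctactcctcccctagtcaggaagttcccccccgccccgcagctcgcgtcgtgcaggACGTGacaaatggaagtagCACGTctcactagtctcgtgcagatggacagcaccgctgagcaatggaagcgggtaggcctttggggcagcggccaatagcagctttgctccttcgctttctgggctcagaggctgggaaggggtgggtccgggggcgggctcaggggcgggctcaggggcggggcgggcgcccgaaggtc
On either strand, TGACG was in 6837 of 32851 RefSeq promoters of this length (20.8%) and ACGTG in 6447 (19.6%), and the letters of these motifs do not overlap one another in the sequences shown. The Fos promoter held TGACG at -129 and -66 from the start, the core of the element bound by CREB and related factors. ACGTG, the core letters bound by several basic helix-loop-helix factors, was in the promoters of 7 of the 11 glycolysis genes (Aldoa, Gapdh, Hk2, Ldha, Pfkm, Pgk1 and Pkm). Of the same 11 genes, the GC box GGGCGG was in 7 (35.7% of all promoters), CCAAT in 6 (37.4%) and TGACG in 3. A gene counts here if any of its RefSeq promoters held the motif. The shares of all promoters are per promoter, so counts and shares are not in the same unit. A match describes the letters in the window and shows no binding.

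The naming rule took the 15 higher genes of smallest p whose libraries did not overlap, and 0 of them passed the test in the fit of all 52 libraries. Ccdc69, which encodes a coiled-coil protein linked to the central spindle of dividing cells, had 4.199, 4.49, 4.68 and 3.50 CPM in RL7_ML, against 1.78, 2.30, 1.86 and 0.847 CPM in RL7_W. Its log2 fold change was 1.32 ± 0.29 (SE; adjusted p of 0.175, edgeR), and it was called in the fit of the 8 libraries (adjusted p of 0.0179) and by DESeq2 (adjusted p of 0.009802). Tst, the mitochondrial sulfurtransferase rhodanese that detoxifies cyanide and sulfide, had 7.38, 6.68, 7.68 and 8.45 CPM in RL7_ML, against 3.81, 4.44, 3.93 and 2.78 CPM in RL7_W. Every RL7_ML library lay above every RL7_W library. Its log2 fold change was 1.01 ± 0.26 (SE; adjusted p of 0.3548, edgeR). Syngr1, a synaptic-vesicle membrane protein, had 15.5, 12.6, 14.2 and 10.97 CPM in RL7_ML, against 7.87, 6.08, 5.95 and 6.30 CPM in RL7_W, a log2 fold change of 1.02 ± 0.25 (SE; adjusted p of 0.331, edgeR). Tst and Syngr1 were each called in the fits of 8 and of 16 libraries and in the 8-library fit with the GC offset, where both had an adjusted p of 0.0234. With the mitochondrial share as a covariate the log2 fold change was 1.09 for Ccdc69, 0.44 for Tst and 0.46 for Syngr1, with adjusted p of 0.5669, 0.8735 and 0.8418 in edgeR.

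Pvalb, the calcium buffer parvalbumin of fast fibres, had 4057, 2410, 2931 and 3136 CPM in RL7_ML, against 1629, 2043, 1993 and 1466 CPM in RL7_W. The groups did not overlap (log2 fold change of 0.81 ± 0.22 SE; adjusted p of 0.3671, edgeR), and the adjusted p was 0.01953 in the fit of 8 libraries and 0.04753 there with the GC offset. With the mitochondrial share as a covariate its log2 fold change was 0.35. Rxrg, a retinoid X receptor of skeletal muscle, had 44.3, 29.2, 32.3 and 33.7 CPM in RL7_ML, against 20.8, 22.1, 25.4 and 23.6 CPM in RL7_W (0.60 ± 0.16 SE on the log2 scale; adjusted p of 0.3671, edgeR). Rpph1, the RNA of the tRNA-processing ribonuclease P, and Rn7s6, a 7S RNA, are short noncoding RNAs. Rpph1 had 837, 426, 395 and 502 CPM in RL7_ML, against 200.2, 273, 138 and 122 CPM in RL7_W. Rn7s6 had 169, 94.6, 91.6 and 94.2 CPM in RL7_ML, against 73.1, 56.6, 56.3 and 53.8 CPM in RL7_W. In both the groups did not overlap, and neither passed the test (adjusted p of 0.3677 and 0.222 in edgeR). The rest of the 15 higher genes taken by the naming rule were Gpank1, Lsmem2, Drap1, Haghl, Itpk1, Myl9, Scarna2 and Gorasp1, with log2 fold changes between 0.56 and 1.42. Of these, Gpank1, Drap1, Haghl and Gorasp1 overlap another gene on the opposite strand and are uncertain.

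**Figure D4:**
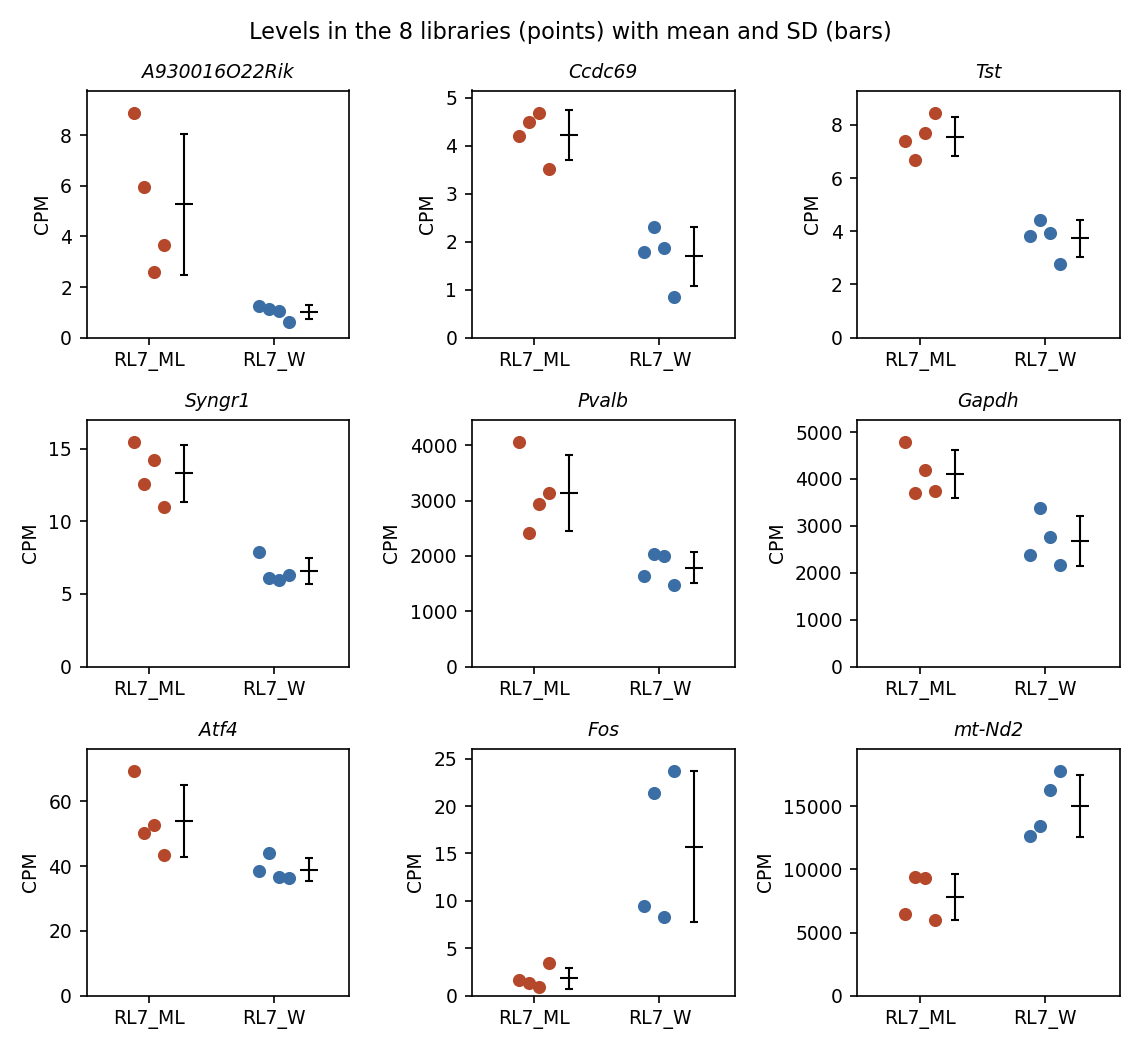
Levels (CPM, linear axes from 0) of 9 genes in the 4 RL7_ML and 4 RL7_W libraries as points, with the mean and SD of each group. The groups are apart in all of them but Atf4, where RL7_ML 6 lies below RL7_W 2; Fos and mt-Nd2 are lower in RL7_ML.

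On the lower side, Fos and then mt-Nd2, both described further on, had the largest fold changes among the 15 genes of the rule. The others were nuclear genes with smaller differences, and 0 passed the test. Lin52, a subunit of the cell-cycle repressor complex DREAM, had 8.24, 6.02, 8.17 and 8.96 CPM in RL7_ML, against 11.5, 11.4, 10.2 and 12.4 CPM in RL7_W (-0.54 ± 0.14 SE on the log2 scale; adjusted p of 0.3555, edgeR). Lpin2, a phosphatidate phosphatase of triglyceride synthesis, had 3.93, 3.30, 3.60 and 4.64 CPM in RL7_ML, against 7.36, 4.65, 6.11 and 6.26 CPM in RL7_W, a log2 fold change of -0.66 ± 0.19 (SE; adjusted p of 0.3677, edgeR). Pspc1, an RNA-binding protein of nuclear paraspeckles, had a log2 fold change of -0.55 and was lower in all 4 RL7_ML libraries than in any RL7_W library. Rbm48, Ldah, Max, Ikbkb, Srrm1, Ccdc77, Rfc4, Trim56 and Nvl also belonged to the set, with log2 fold changes between -0.76 and -0.27.

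Fos, the immediate early transcription factor that contracting muscle switches on within minutes, had the smallest p of the lower genes. It had 1.62, 1.32, 0.936 and 3.40 CPM in RL7_ML, against 9.44, 21.4, 8.29 and 23.7 CPM in RL7_W. The highest RL7_ML library lay below the lowest RL7_W library. The log2 fold change was -3.12 ± 0.67 (SE; adjusted p of 0.175, edgeR), and Fos was called in the fit of the 8 libraries (adjusted p of 0.03782) and by DESeq2 (adjusted p of 0.001204). Against RL7_W, RL7_L differed by -2.61 and RL7_M by -0.32 on the log2 scale, with medians of 2.41 CPM in RL7_L and 6.83 CPM in RL7_M. With the mitochondrial share as a covariate the Fos value was -3.74 (adjusted p of 0.07442, edgeR). RL7_ML against RL7_M was -2.80 and did not pass the test (adjusted p of 0.4942, edgeR). At the end of unloading the same contrast of drinks gave -3.32 and at 14 d of reloading -0.60. Ambulatory mice on water had a median of 2.53 CPM and unloaded mice on water one of 32.4 CPM.

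Most genes of the immediate early list, Fos among them, had a negative value. Of the 13 tested, 3 had a positive log2 fold change, 3 were lower at an unadjusted p under 0.05 and the median was -0.18 (-0.47 with the GC offset and -0.41 with the mitochondrial share as a covariate). Egr1, a zinc finger factor of the same early response, had 5.87, 10.03, 13.9 and 12.8 CPM in RL7_ML, against 15.9, 16.9, 18.1 and 24.9 CPM in RL7_W, without overlap (log2 fold change of -0.83 ± 0.40 SE; adjusted p of 0.5398, edgeR). Fosb had 0.108, 0.308, 0.345 and 0.309 CPM in RL7_ML, against 1.117, 1.07, 0.213 and 1.46 CPM in RL7_W, where RL7_W 3 lay within the treated range (-1.82 ± 0.80 SE; adjusted p of 0.4972, edgeR).

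The 50 gene lists, chosen with earlier results of these data known, held 0 called members in the fit of all libraries, against the 0.006% of all genes. They are described by their medians and by how many members did not overlap between the groups, beside the 6.42% of genes higher and 4.2% lower without overlap among all genes. Glycolysis stood highest among lists of at least 10 tested members other than liver and myelin markers, and genes encoded in the mitochondrion and of slow fibres stood lowest.

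**Figure D5:**
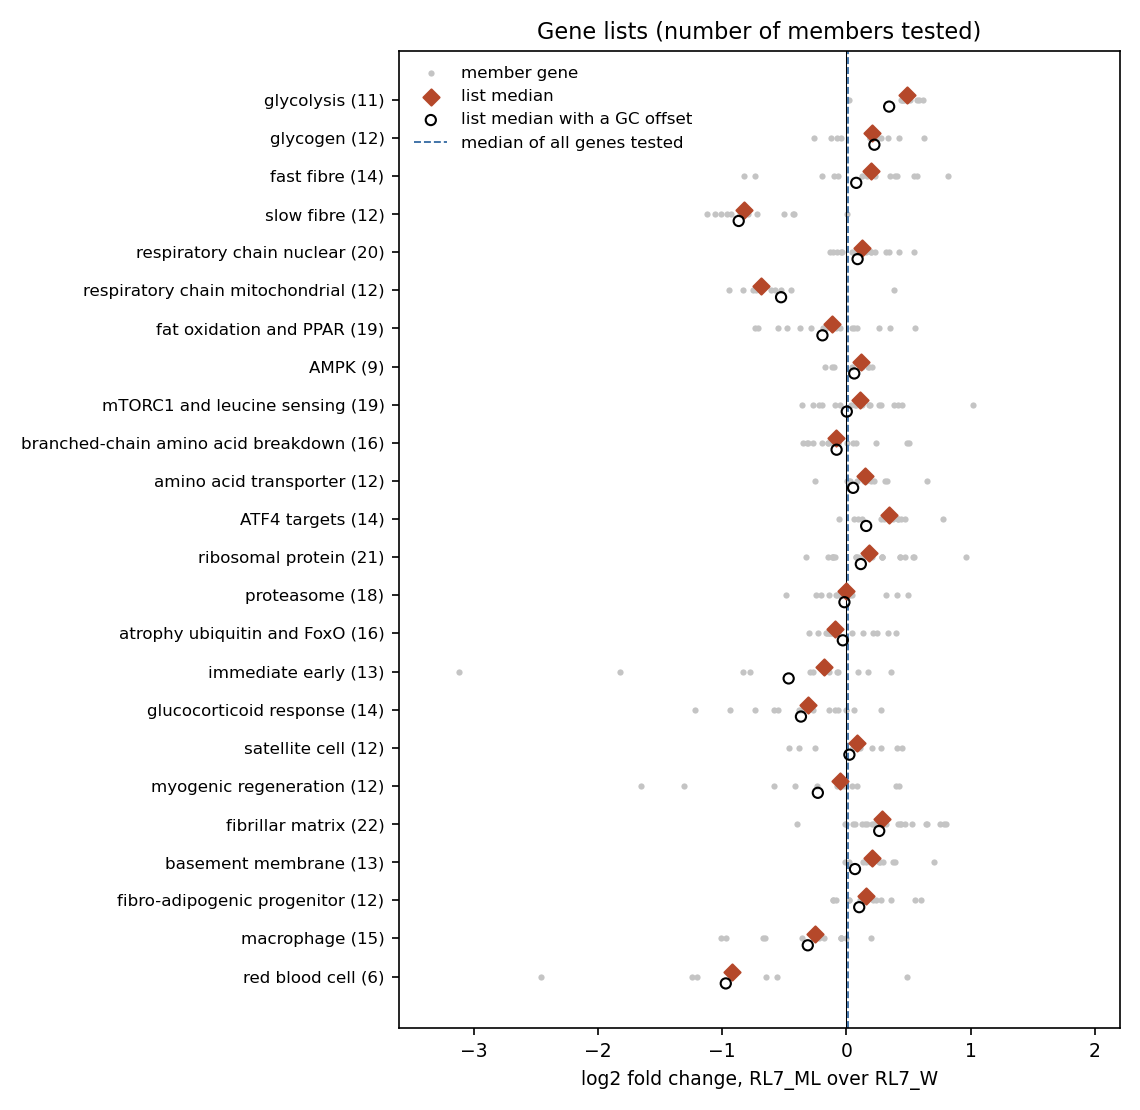
Log2 fold change of RL7_ML over RL7_W for the members of 24 gene lists (grey points), the list median (diamond), the median with a GC offset (open circle) and the median of all genes tested (dashed line). The medians of glycolysis (0.49) and mitochondrially encoded genes (-0.69) keep their side with the GC offset, and slow fibre genes (-0.82) and red blood cell genes (-0.92) lie lowest.

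All 11 genes of glycolysis, which breaks glucose down to pyruvate and lactate, had a positive log2 fold change, with a median of 0.49 (0.34 with the GC offset and 0.25 with the mitochondrial share as a covariate). Of these 11, 10 were higher at an unadjusted p under 0.05 and in 7 the groups did not overlap. Their summed level was 20230 to 26610 CPM in RL7_ML, against 14020 to 18000 CPM in RL7_W. Gapdh, the glyceraldehyde phosphate dehydrogenase, had 4788, 3697, 4189 and 3747 CPM in RL7_ML, against 2369, 3385, 2767 and 2177 CPM in RL7_W. Its log2 fold change was 0.62 ± 0.20 (SE; adjusted p of 0.3677, edgeR). Aldoa, the muscle aldolase, had 8688, 6931, 7155 and 6881 CPM in RL7_ML, against 4934, 5411, 5395 and 5033 CPM in RL7_W, with no overlap. Ldha, the lactate dehydrogenase of fast muscle, had 1509, 1059, 1218 and 1167 CPM in RL7_ML, against 771, 1034, 988 and 726 CPM in RL7_W. In Pgk1, which makes the first ATP of the pathway, RL7_ML 3 at 274.4 CPM lay just below RL7_W 2 at 275.5 CPM. Hk2, the hexokinase that traps glucose in the fibre, was the exception with a log2 fold change of 0.02 ± 0.12 (SE; adjusted p of 0.9613, edgeR). The fit of the 8 libraries called 5 of the 11 higher (Gapdh, Aldoa, Gpi1, Pgam2 and Pgk1), beside 1.79% of all genes. With the GC offset it called 0, beside 0.11%. The fit of the 16 libraries of 7 d and DESeq2 called 0 of the 11. Limma voom called 9 higher, beside 3.83% of all genes called in either direction. Of the 11 genes, at least Aldoa, Gapdh and Pfkm overlap another gene on the opposite strand.

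Against water, the median of the same 11 genes was 0.27 in RL7_M and 0.30 in RL7_L, with the RL7_W libraries shared by all 3 comparisons. RL7_ML lay 0.22 above RL7_M and 0.23 above RL7_L at the median, with 0 genes called in either. Pygm, the muscle glycogen phosphorylase that feeds the pathway, had 6107, 5127, 5941 and 5790 CPM in RL7_ML, against 3784, 4691, 4734 and 3896 CPM in RL7_W (0.43 ± 0.18 SE on the log2 scale; adjusted p of 0.4864, edgeR). The list of 12 glycogen genes had a median of 0.21.

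Of 12 tested genes encoded in the mitochondrial genome, 11 had a negative log2 fold change, 6 were lower at an unadjusted p under 0.05 and 9 did not overlap between the groups. The median was -0.69, and -0.53 with the GC offset. With 5.8S ribosomal RNA as a covariate it was -0.24, and with the mitochondrial share, which these genes make up, it was 0.16. Their sum was 61070 to 86960 CPM in RL7_ML, against 104700 to 130400 CPM in RL7_W. mt-Nd2, a subunit of complex I, had 6433, 9383, 9345 and 6033 CPM in RL7_ML, against 12630, 13410, 16300 and 17800 CPM in RL7_W, a log2 fold change of -0.95 ± 0.27 (SE; adjusted p of 0.3677, edgeR). mt-Cytb, of complex III, had 9510, 11730, 11240 and 7941 CPM in RL7_ML, against 14840, 15770, 17670 and 18580 CPM in RL7_W. mt-Co3 went the other way at 49.9, 162, 145 and 42.8 CPM in RL7_ML, against 56.8, 128, 57.9 and 63.3 CPM in RL7_W, where the groups overlapped. Near-identical nuclear copies of mitochondrial genes exist, and how the counting split reads between them was not given in the sources used here. The 8-library fit called 8 of the 12 lower, beside 1.18% of all genes, and with the GC offset 0, beside 0.144%. The fit of the 16 libraries of 7 d and DESeq2 called 0 of the 12. Limma voom called 5 lower, beside 3.83% of all genes called in either direction.

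The other drinks of 7 d reloading also had medians of these genes below water, -0.88 in RL7_M and -0.83 in RL7_L. Compared gene by gene, RL7_ML lay 0.27 above RL7_M and 0.13 above RL7_L at the median. RL7_M and RL7_L are the groups whose libraries share the numbers 25 to 40 with RL7_ML. The 20 nuclear genes of the respiratory chain had a median of 0.12, with 2 higher and 0 lower at an unadjusted p under 0.05. Ndufb8, a nuclear-encoded subunit of complex I, had 131, 97.0, 109.8 and 97.6 CPM in RL7_ML, against 82.6, 98.7, 70.3 and 73.4 CPM in RL7_W, with overlap (0.42 ± 0.17 SE; adjusted p of 0.4839, edgeR). In the first fit nuclear and mitochondrial genes of the same enzyme complexes thus had medians of opposite sign. With the mitochondrial share as a covariate both medians were positive, 0.20 for the nuclear and 0.16 for the mitochondrial genes.

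Of the genes called lower in the 8-library fit with the GC offset, 3 that encode small mitochondrial proteins are given here. They lie outside the lists and were picked after the values of that fit were seen, so they stand for no group, and the list of 20 nuclear respiratory genes had a positive median. Minos1, of the complex that shapes the inner membrane, had 45.4, 43.2, 48.3 and 40.1 CPM in RL7_ML, against 65.9, 63.2, 75.3 and 74.3 CPM in RL7_W. Usmg5, a small subunit of the ATP synthase, had 100.2, 86.8, 95.5 and 77.5 CPM in RL7_ML, against 131, 138, 170.2 and 158 CPM in RL7_W. Cox6c, of complex IV, had 193, 169, 191 and 143 CPM in RL7_ML, against 255, 263, 278 and 287 CPM in RL7_W. In these 3 genes the groups did not overlap. In the fit of all 52 libraries their adjusted p in edgeR was 0.4209 for Minos1, 0.4212 for Usmg5 and 0.4864 for Cox6c. That 8-library fit with the offset called 37 genes (0.254%), 16 higher (0.11%) and 21 lower (0.144%), of which 9 were also among the 24 of the 16-library fit. These 9 were A930016O22Rik, Anxa11, Hist1h4c, Kctd15, Minos1, Rpl38, Syngr1, Tst and Usmg5.

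Genes of the pathways that metformin and leucine act on had medians somewhat above the 0.014 of all genes in the first fit. Among all genes 5.77% were higher and 3.33% lower at an unadjusted p under 0.05. Of 9 tested AMPK genes, 0 passed an unadjusted p under 0.05 in either direction and 0 were without overlap, and the median was 0.12 (0.06 with the GC offset and -0.01 with the mitochondrial share as a covariate). The catalytic subunits Prkaa1 and Prkaa2 had log2 fold changes of -0.12 ± 0.10 and 0.04 ± 0.12 (SE). Of 19 genes of mTORC1 and leucine sensing, 4 were higher and 1 lower at an unadjusted p under 0.05, 4 were higher without overlap, and the median was 0.11 (0.003 with the GC offset and 0.01 with the mitochondrial share as a covariate). Eif4ebp1, the translation repressor that mTORC1 phosphorylates, had 17.6, 16.6, 17.4 and 13.9 CPM in RL7_ML, against 12.8, 10.9, 11.7 and 12.6 CPM in RL7_W, without overlap (0.45 ± 0.21 SE; adjusted p of 0.5171, edgeR; 0.04094 in the fit of 8 libraries). Flcn, folliculin, a regulator of the lysosomal Rag GTPases, had 37.4, 35.2, 33.4 and 29.8 CPM in RL7_ML, against 27.8, 28.9, 25.9 and 21.9 CPM in RL7_W. Castor1, a cytosolic sensor of arginine for mTORC1, was under 1 CPM in all 8 libraries, and its groups overlapped. Lars, the leucyl-tRNA synthetase, had a log2 fold change of 0.26 ± 0.11 and the mTORC1 activator Rheb one of -0.22 ± 0.10 (SE), both with overlap.

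Genes that break down branched-chain amino acids, leucine among them, went both ways. Of 16 tested, 2 were higher and 3 lower at an unadjusted p under 0.05, and the median was -0.09. Bckdk, the kinase that holds the branched-chain ketoacid dehydrogenase inactive, had 76.0, 57.2, 64.7 and 59.9 CPM in RL7_ML, against 47.7, 50.6, 44.7 and 40.7 CPM in RL7_W (0.49 ± 0.18 SE; adjusted p of 0.4234, edgeR; 0.02369 in the fit of 8 libraries). Dbt, a subunit of that dehydrogenase, had 20.4, 18.2, 22.2 and 20.2 CPM in RL7_ML, against 26.4, 28.2, 24.1 and 24.4 CPM in RL7_W (-0.35 ± 0.15 SE; adjusted p of 0.4972, edgeR). The inhibitor of the enzyme was thus higher and a subunit lower, each without overlap and neither past the test.

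The amino acid response factor Atf4 had 69.4, 50.2, 52.8 and 43.5 CPM in RL7_ML, against 38.4, 44.1, 36.8 and 36.4 CPM in RL7_W (0.47 ± 0.13 SE; adjusted p of 0.3671, edgeR). Of 14 tested genes in the list of ATF4 targets, Atf4 included, 13 had a positive log2 fold change and 2 were higher at an unadjusted p under 0.05, with a median of 0.34 (0.16 with the GC offset and 0.11 with the mitochondrial share as a covariate). Mthfd2, a mitochondrial enzyme of folate metabolism, had 2.53, 3.43, 3.50 and 2.47 CPM in RL7_ML, against 1.47, 2.399, 1.595 and 1.505 CPM in RL7_W, without overlap. Asns and Trib3, classic targets of the same factor, had log2 fold changes of 0.34 and 0.30 and overlapped. Of 12 amino acid transporters, 11 had a positive value and the median was 0.15 (-0.23 with the mitochondrial share as a covariate), and Slc7a5, the leucine transporter, had a log2 fold change of 0.31.

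Among 21 cytoplasmic ribosomal protein genes, 9 were higher and 0 lower at an unadjusted p under 0.05, 7 were higher without overlap, and the median was 0.18 (0.12 with the GC offset). Rps14, of the small subunit, had 54.8, 30.5, 35.5 and 32.8 CPM in RL7_ML, against 19.8, 23.7, 17.8 and 17.3 CPM in RL7_W (0.97 ± 0.28 SE; adjusted p of 0.3677, edgeR). Rpl38, outside the list, had 44.4, 36.98, 40.03 and 35.1 CPM in RL7_ML, against 48.6, 54.6, 54.8 and 64.9 CPM in RL7_W and so lay on the other side. The 8-library fit called 5 of the 21 higher, beside 1.79% of all genes, and 1 with the GC offset, beside 0.11%. The fit of the 16 libraries of 7 d and DESeq2 called 0 of the 21. Limma voom called 5 higher, beside 3.83% of all genes called in either direction. Ribosomal protein genes have many processed copies that can share reads.

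Lists of protein breakdown had medians near that of all genes. Trim63 and Fbxo32, the muscle ubiquitin ligases MuRF1 and atrogin-1, had log2 fold changes of -0.08 and -0.23, and the list of 16 atrophy and FoxO genes had a median of -0.09. For 18 proteasome genes the median was -0.002 (0.09 with the mitochondrial share as a covariate). For 14 autophagy genes it was 0.04 (-0.08 with the GC offset and -0.01 with the mitochondrial share as a covariate). Sqstm1, the autophagy receptor p62, had 347, 316, 284 and 256 CPM in RL7_ML, against 256, 190, 234 and 234 CPM in RL7_W (0.40 ± 0.13 SE; adjusted p of 0.3677, edgeR), and overlaps Mrnip on the opposite strand. The FoxO factors Foxo1 and Foxo3 had log2 fold changes of -0.30 and 0.22, Mstn, the brake on muscle growth, one of -0.03, and Igf1, a growth factor of fibres, one of 0.08.

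Of 14 glucocorticoid response genes, 2 had a positive log2 fold change, and 0 were higher and 2 lower at an unadjusted p under 0.05. Without overlap, 1 was higher (Cebpb, 0.28) and 3 were lower. The median was -0.31 (-0.37 with the GC offset and -0.48 with the mitochondrial share as a covariate). Mt1, a metal-binding metallothionein, had 6.30, 6.90, 3.55 and 6.39 CPM in RL7_ML, against 9.09, 16.9, 18.5 and 9.64 CPM in RL7_W. Its groups did not overlap (-1.22 ± 0.42 SE; adjusted p of 0.4146, edgeR). Klf15, a further target of the hormone, had a log2 fold change of -0.07 and Ddit4, an inhibitor of mTORC1, one of -0.35.

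In fat metabolism, Lpl, the lipoprotein lipase that takes up fatty acids from blood, had 337, 277, 289 and 297 CPM in RL7_ML, against 561, 629, 369 and 454 CPM in RL7_W, without overlap (-0.75 ± 0.43 SE; adjusted p of 0.5934, edgeR; 0.0179 in the fit of 8 libraries). Acadl, the long-chain acyl-CoA dehydrogenase, had 136, 119, 114 and 121 CPM in RL7_ML, against 178, 209, 138 and 191 CPM in RL7_W. Lpl and Acadl were thus lower in every RL7_ML library. Lpl was named as the member with the smallest p in the list of adipocyte markers, where 6 of 10 tested had a positive log2 fold change. The median of those markers was 0.325 (-0.396 with the mitochondrial share as a covariate), with 2 lower and 0 higher without overlap. Cpt1b, of the same fat oxidation list as Acadl, went the other way without overlap (0.554 ± 0.265 SE; adjusted p of 0.5344, edgeR). In that list 1 gene was higher and 1 lower at an unadjusted p under 0.05, and likewise 1 and 1 did not overlap. The list of 19 genes of fat oxidation and PPAR targets had a median of -0.12 (0.11 with the mitochondrial share as a covariate), and Ppargc1a, the coactivator of mitochondrial biogenesis, a log2 fold change of -0.36.

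Slow fibre genes varied widely within both groups. Of 12 tested, 11 had a negative log2 fold change with a median of -0.82, yet 0 passed an unadjusted p under 0.05 and 2 did not overlap. With the mitochondrial share as a covariate the median turned to 0.19. Their sum was 233 to 752 CPM in RL7_ML, against 452 to 1279 CPM in RL7_W. Myh7, the slow myosin heavy chain, had 248, 42.8, 42.4 and 278 CPM in RL7_ML, against 406, 460.3, 193 and 127 CPM in RL7_W (-0.96 ± 1.11 SE). The gastrocnemius is mostly fast, and how much slow muscle a sample holds was not measured. In bulk RNA fewer cells of a type and less RNA per cell cannot be told apart, here and in the marker lists that follow. Of 14 fast fibre genes, 6 were higher and 0 lower at an unadjusted p under 0.05, 4 were higher without overlap, and the median was 0.20 (0.08 with the GC offset). Myh4, the fastest myosin, had 59390, 47280, 49950 and 44670 CPM in RL7_ML, against 39210, 44260, 51030 and 44590 CPM in RL7_W, with overlap (0.17 ± 0.17 SE). Myh1 and Myh2, the intermediate myosins, had log2 fold changes of -0.74 and -0.83, also with overlap.

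Most regeneration markers overlapped between the groups. Satellite cell genes numbered 12, with a median of 0.09 (0.02 with the GC offset and -0.05 with the mitochondrial share as a covariate), 0 past an unadjusted p under 0.05 and 1 (Itga7) higher without overlap. Their sum was 112 to 127 CPM in RL7_ML, against 91.9 to 119.5 CPM in RL7_W. Pax7, the defining factor of these cells, had 2.21, 2.46, 2.56 and 1.65 CPM in RL7_ML, against 2.29, 1.63, 1.28 and 1.32 CPM in RL7_W (0.45 ± 0.28 SE; adjusted p of 0.6133, edgeR). Myf5, Myod1 and Myog, factors of commitment and differentiation, had log2 fold changes of 0.06, 0.42 and -0.01. Myh3, the embryonic myosin of new fibres, had 6.24, 4.88, 1.28 and 7.78 CPM in RL7_ML, against 10.9, 23.8, 7.66 and 7.62 CPM in RL7_W, with overlap (-1.31 ± 0.79 SE; adjusted p of 0.612, edgeR).

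Of 22 fibrillar matrix genes, 19 had a positive log2 fold change, 3 were higher at an unadjusted p under 0.05 and 1 did not overlap, with a median of 0.29. Col1a1, the main chain of collagen I, had 32.7, 112, 44.7 and 42.6 CPM in RL7_ML, against 56.1, 44.7, 24.1 and 10.2 CPM in RL7_W. RL7_ML 3 stood apart from the other treated libraries, and the rest lay within the water range (0.78 ± 0.54 SE; adjusted p of 0.6461, edgeR). Col3a1 had 113, 150.4, 74.9 and 65.2 CPM in RL7_ML, against 92.5, 77.5, 41.4 and 19.99 CPM in RL7_W, with overlap (0.80 ± 0.43 SE; adjusted p of 0.5781, edgeR). Col1a2 had a log2 fold change of 0.65, Fn1 (fibronectin) one of 0.43 and Postn (periostin) one of 0.23. Gsn, the actin-severing gelsolin, from the list of fibro-adipogenic progenitor markers, had 394, 323, 269 and 306 CPM in RL7_ML, against 261, 205, 192 and 192 CPM in RL7_W, without overlap (0.60 ± 0.21 SE; adjusted p of 0.4209, edgeR; 0.02597 in the fit of 8 libraries). Basement membrane genes numbered 13 with a median of 0.21 (0.07 with the GC offset and 0.05 with the mitochondrial share as a covariate), and fibro-adipogenic progenitor genes 12 with a median of 0.16.

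Macrophage markers had 1 positive log2 fold change among 15, a median of -0.26 (-0.97 with the mitochondrial share as a covariate), 0 past an unadjusted p under 0.05 and 1 lower without overlap. Their sum was 67.7 to 122.5 CPM in RL7_ML, against 92.9 to 131 CPM in RL7_W. Red blood cell markers, 6 in number, had a median of -0.92 (-1.17 with the mitochondrial share as a covariate) and a sum of 5.61 to 9.36 CPM in RL7_ML, against 8.63 to 16.9 CPM in RL7_W. All 10 liver markers had a positive value, which rests on RL7_ML 4: their sum was 0.176 to 14.7 CPM in RL7_ML, with a median library of 0.521 CPM, against 0.0511 to 0.425 CPM in RL7_W.

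In the fit of all libraries 0 genes separated the combined drink from either agent alone. RL7_ML against RL7_M had 0 calls with 634 genes at an unadjusted p under 0.05 (3.8%), and RL7_ML against RL7_L had 0 calls with 576 (3.46%), by edgeR's quasi-likelihood test. DESeq2 called 3 genes against RL7_L, and limma voom with quality weights 4 against RL7_M and 4 against RL7_L. Without the libraries over 16 CPM of Alb, which leaves 4 libraries in RL7_ML against 2 in RL7_M and 2 in RL7_L, 17 genes were called against RL7_M and 3 against RL7_L. The macrophage list had a median of -0.67 in RL7_ML against RL7_L and of -0.46 against RL7_M. These comparisons share the 4 RL7_ML libraries.

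The effect of the combined drink was also set against its effect at the other times by interaction terms. Between 7 d of reloading and unloading, 2 genes differed (0.012% of 16668), with 466 at an unadjusted p under 0.05 (2.8%). Both face abundant muscle genes. A930016O22Rik differed by 2.76 on the log2 scale (adjusted p of 0.03607, edgeR), with a value of 2.37 at 7 d and -0.39 at unloading. Ube2c differed by 3.15 ± 0.59 (SE; adjusted p of 0.03607, edgeR), with 1.81 at 7 d and -1.34 at unloading. Leaving out 1 library at a time gave 0 to 3 calls. Neither gene was called without HU_W 1, HU_ML 1, 5 or 6, any of the 4 RL7_W libraries, or RL7_ML 1 or 3, nor without HU_W 3, where the 1 call was a lower gene. Without HU_W 4 or HU_ML 4 there was 1 call, a higher gene.

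Between 7 d and 14 d of reloading, 321 genes differed (1.93%), with 2778 at an unadjusted p under 0.05 (16.7%). Of the 321, 193 had a higher value at 7 d (1.16%) and 128 a lower one (0.768%). Library composition ran opposite ways at 7 d and 14 d, since RL14_W, and not RL14_ML, belongs to the libraries numbered 25 to 40. RL14_ML 1 was the exception, with a mitochondrial share of 11.4%, within the 8.31% to 11.7% of RL14_W, and a GC trend of 1.359, above the 0.02 to 0.484 of RL14_W. Of the genes called higher, 3 were in the GC class with the lowest share and 56 in the class with the highest, and of those called lower 33 and 7. Leaving out RL14_ML 1 gave 3339 calls and leaving out RL14_W 4 gave 77, and with the 5.8S ribosomal RNA as a covariate 0 genes were called, with 801 at an unadjusted p under 0.05. Scarna10, a small RNA of Cajal bodies, had the highest difference named by the rule, 2.51 ± 0.40 (SE; adjusted p of 0.0002965, edgeR), from 0.91 at 7 d and -1.60 at 14 d. The ribosomal RNAs n-R5-8s1, mt-Rnr2 and mt-Rnr1 had the lowest, -6.54, -4.36 and -3.95, and the haemoglobin gene Hbb-bs followed at -3.84.

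Of protein-coding genes, Rps14 differed by 1.71 (0.97 at 7 d, -0.74 at 14 d; adjusted p of 0.01951, edgeR) and Mthfd2 by 1.67 (0.78 and -0.90; adjusted p of 0.02718, edgeR). Lsmem2, whose counted entry is annotated as a long noncoding RNA, differed by 1.56 (0.81 and -0.75; adjusted p of 0.003095, edgeR). In the glycolysis list 9 of 11 members were called with a higher effect at 7 d than at 14 d, beside 1.16% of all genes, with list medians of 0.49 at 7 d and -0.30 at 14 d, and in the ribosomal protein list 11 of 21, with 0.18 and -0.39. In the mitochondrially encoded list 9 of 12 were called with a lower effect at 7 d, beside 0.768% of all genes, with -0.69 at 7 d and 1.13 at 14 d. The mitochondrial share and the GC trend of the libraries move with these values, and time and library number cannot be told apart in them.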

How the data were processed

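Gastrocnemius RNA was sequenced as stranded total RNA after removal of ribosomal RNA, per the labels' protocols. The authors deposited raw counts per Ensembl gene for 55487 genes and 52 libraries, whole numbers with no normalization. The submitters' processing notes name GRCm38, STAR 2.7.3a, featureCounts 1.6.3 and DESeq2 1.30.0. How multi-mapping reads and strand were treated, and which annotation release was used, is not given in the sources used here. Names and positions came from GENCODE vM21 by identifier (55227 matched), and promoters from RefSeq.

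The tests on counts used edgeR 4.0.16 (R 4.3.3). filterByExpr with a minimum count of 10 left 16668 genes. TMM factors scaled the libraries, and 1 robust quasi-likelihood model with 13 group means was fitted to all 52 (39 residual degrees of freedom, common dispersion of 0.045). Benjamini-Hochberg adjustment ran over all genes tested, and calls are genes with an adjusted p under 0.05. SE values come from the F statistic. The totals give the depth, and intervals cover the spread between libraries only. The steps were tested on simulated data. The closest pair of replicates differed with a chi-square of 7.706 per degree of freedom, so no library was counted as a duplicate. Same-numbered RL7_ML and RL7_W libraries had correlations of deviations of -0.081, -0.135 and 0.067, so numbers were not taken as pairs.

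The members, the 50 gene lists, the comparisons and the rule for named genes were chosen with earlier results of these data known. The rule took the 15 highest and 15 lowest fold changes among calls whose average log2 CPM reached 1, whose groups did not overlap and whose symbol is no clone name, filled up by smallest p, the member with the smallest p in each list, up to 4 and 4 calls in the other comparisons, and a set of muscle genes (Pax7, Col1a1, Trim63 and others). For lack of room some are left out, 1 gene is not reported here, and a gene from outside the rule is marked as picked with its values in view or stands as a partner or list member. Alternatives comprised RLE factors, TMM without mitochondrial and short noncoding genes, no filter, fits of fewer libraries, covariates, a replicate block, leaving out each replicate, limma 3.58.1 voom with quality weights and DESeq2 1.42.0. The GC offset (also in the 8-library fit), the mitochondrial share as covariate and the set of genes facing abundant genes were added after seeing the data.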

Additional observations from a re-analysis of the deposited data

Results flagged for a closer look

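In 11 of 200 groups of 4 libraries tested for the 100 named genes, 1 library lay far from the other 3, and chance gives about 1 in 20 groups. RL7_ML 1 stood high in Rn7s6 (168.8 CPM, others 91.64 to 94.58), Drap1 (163.8 CPM, others 105.7 to 111.2) and Cldn5 (6.782 CPM, others 3.957 to 4.274). RL7_ML 3 stood high in Col1a1 (112.2 CPM, others 32.67 to 44.66), Col1a2 (128.8 CPM, others 72.29 to 77.94) and Tagln (22.2 CPM, others 5.811 to 6.513). RL7_ML 4 stood high in B2m (78.05 CPM, others 70.09 to 71.38) and in the liver transcript Mup3 (1.034 CPM, others at 0). In water, RL7_W 1 stood high in Rn7s6 (73.06 CPM, others 53.8 to 56.56), RL7_W 4 high in Itpk1 (3.762 CPM, others 3.148 to 3.243) and low in Lars (34.8 CPM, others 38.44 to 38.95).

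The effect of the combined drink differed between 7 d of reloading and unloading in A930016O22Rik by 2.759 on the log2 scale (interaction term, adjusted p under 0.05 in edgeR). Between 7 d and 14 d of reloading, 25 of the 100 named genes differed by the same kind of test, beside 1.93% of all genes. Many of the 100 were chosen by their values in RL7_ML against RL7_W, libraries that also enter this test, so nothing is read from that share. Those with a higher effect at 7 d were Ccdc69 (1.5), Rn7s6 (1.546), Syngr1 (1.341), Lsmem2 (1.558), Tst (1.336), Drap1 (1.004), Haghl (1.453), Rxrg (0.934), Itpk1 (1.128), Myl9 (1.134), Pvalb (1.182), Col5a3 (1.441), Ndufb8 (0.891), Pkm (0.713), Atf4 (0.905), Psmb3 (0.807), Sqstm1 (0.802) and Rps14 (1.706). Those with a lower effect at 7 d were mt-Nd2 (-2.163), Rbm48 (-0.961), Ldah (-0.568), Srrm1 (-0.611), Trim56 (-0.509), Nvl (-0.464) and B2m (-1.573). The mitochondrial share and GC trend of the libraries move with both contrasts in opposite directions, RL14_ML 1 apart, and time and library number cannot be told apart.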

How the results depend on the processing

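The count of 1 gene in RL7_ML against RL7_W was 1 under RLE factors, TMM without mitochondrial and short noncoding genes, no filter on low counts, without libraries over 16 CPM of Alb and with the GC offset. It was 433 in the fit of the 8 libraries, 37 there with the GC offset, 24 in the fit of the 16 libraries of 7 d, 108 without RL14_ML 1 and 6, 3 with 5.8S rRNA as covariate, 0 with the mitochondrial share as covariate (972 genes at an unadjusted p under 0.05), 638 in limma voom and 20 in DESeq2. With a replicate block it was 2 in all 52 libraries and 242 in the 6 libraries with shared numbers; the numbers share no more than a label. Leaving out 1 library at a time gave 1 to 3 calls (3 without RL7_ML 4). Against RL7_M, 0 calls became 17 without libraries over 16 CPM of Alb and 4 in limma voom, and were 0 to 0 on leaving out 1 library at a time. Against RL7_L, 0 became 3 without libraries over 16 CPM of Alb, 1 with the mitochondrial share, 4 in limma voom and 3 in DESeq2, and 0 to 4 on leaving out 1 library (1 without RL7_L 1, 4 without RL7_L 5, 1 without RL7_ML 1 and 2 without RL7_ML 3). Of the interaction with unloading, 2 calls became 0 without a filter, 1 in the fit of its own groups, 0 without libraries over 16 CPM of Alb, 1 with the GC offset, 0 in limma voom and 5 in DESeq2, and 0 to 3 on leaving out 1 library (1 without HU_W 4 or HU_ML 4, and 1 without HU_W 3, a lower gene where the 2 calls were higher). Of the interaction with 14 d, 321 calls became 120 without a filter, 32 in the fit of its own groups, 2364 without RL14_ML 1 and 6, 0 with 5.8S rRNA, 158 with the mitochondrial share, 4142 in limma voom and 542 in DESeq2, and 77 to 3339 on leaving out 1 library. Those that moved it by over 1.5 times were RL7_ML 1 (89) and 4 (190), RL7_W 3 (139) and 4 (101), RL14_ML 1 (3339), 3 (124) and 6 (89), and RL14_W 3 (80) and 4 (77). A called value changed sign under 0 settings, and of list medians, which have no test, those of slow fibre, mitochondrially encoded, fat oxidation and amino acid transporter genes, among others, changed sign with the mitochondrial share as a covariate. Why the counts differ was not tested. With 4 libraries a group the median SE was 0.227 on the log2 scale, and the difference a gene needs to pass the test grows with its own SE.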
